A study of Mus musculus with 40 samples.

Results

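The regions described here are stretches of the mouse genome that carried a peak of histone H3 lysine 4 trimethylation (H3K4me3) in brown adipose tissue (BAT) of warm-housed mice on 1 diet and not on the other. They were found by joining the H3K4me3 peak lists of 2 mice on normal chow diet (NCD, mice 1 and 2) and 2 mice on high-fat diet (HFD, mice 7 and 8) wherever peaks shared at least 1 bp, and by keeping the regions with a peak in both mice of 1 diet and in neither of the other. Of 22710 joined regions, 2458 met this rule, 2447 of them NCD-only and 11 HFD-only. All peak lists of the series together gave 74518 joined regions.

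All mice were wild type C57BL/6N, 20 weeks of age at collection. They ate chow until 8 weeks of age. The HFD mice then received high-fat diet for 12 weeks, while the NCD mice stayed on chow. The warm mice had no cold exposure. For comparison, the cold mice, 4 and 5 on NCD and 10 and 11 on HFD, were kept at 4 °C for 24 h before collection. The series holds 40 samples, with chromatin immunoprecipitation sequencing (ChIP-seq) of 4 histone marks and an input library. The mice carried no transgene, the tissue was dissociated with no sorting step described, and with 2 libraries per diet an exact two-sided permutation test over mice cannot go below p = 0.333. The methods can be read as 2 mice per group or as tissue of 2 mice per library, so the spread between libraries may be between mice or between pools.

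H3K4me3 marks nucleosomes around the start sites of genes that are being transcribed or are poised for transcription, and it is most prominent at CpG-rich promoters. H3K27 acetylation (H3K27ac) marks active promoters and enhancers alike. Brown adipocytes burn lipid to produce heat through the uncoupling protein UCP1, and they also store fat and secrete signals such as leptin, the hormone that reports fat stores to the brain. A peak list records where signal exceeded the input, so the absence of a peak means that no enrichment was called there and not that the mark was missing.

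The sequences printed here are those of start sites on which the results below turn, as single examples and not as typical members of their classes, each read 5′ to 3′ on the strand of its gene, with every CG dinucleotide in capitals. The Lep (leptin) promoter, chr6:29059971-29060270 on the + strand, and the Mmd2 promoter, chr5:142608703-142609002 on the - strand, were NCD-only. The Cd36 promoter, chr5:17835847-17836146 on the - strand, belonged to a gene whose peak ranked higher in both HFD mice. The Tsc2 promoter, chr17:24632578-24632877 on the - strand, ranked higher in both NCD mice. The start of an alternative Adcy3 transcript, chr12:4159350-4159649 on the + strand, was HFD-only. The 4 gene promoters are from RefSeq on GRCm38.p6 and the Adcy3 stretch is from the GRCm38 genome.
Lep: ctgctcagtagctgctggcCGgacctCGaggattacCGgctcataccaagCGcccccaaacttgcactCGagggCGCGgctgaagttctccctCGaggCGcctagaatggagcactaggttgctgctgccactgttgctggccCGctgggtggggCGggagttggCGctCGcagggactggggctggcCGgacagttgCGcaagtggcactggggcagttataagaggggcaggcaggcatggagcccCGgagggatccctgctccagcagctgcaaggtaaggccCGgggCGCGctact
Mmd2: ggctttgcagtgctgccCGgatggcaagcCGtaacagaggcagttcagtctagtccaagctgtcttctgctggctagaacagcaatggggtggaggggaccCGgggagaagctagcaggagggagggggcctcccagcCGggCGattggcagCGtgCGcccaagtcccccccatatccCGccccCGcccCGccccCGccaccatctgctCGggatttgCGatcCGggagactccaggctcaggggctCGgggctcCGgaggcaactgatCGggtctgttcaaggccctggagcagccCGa
Cd36: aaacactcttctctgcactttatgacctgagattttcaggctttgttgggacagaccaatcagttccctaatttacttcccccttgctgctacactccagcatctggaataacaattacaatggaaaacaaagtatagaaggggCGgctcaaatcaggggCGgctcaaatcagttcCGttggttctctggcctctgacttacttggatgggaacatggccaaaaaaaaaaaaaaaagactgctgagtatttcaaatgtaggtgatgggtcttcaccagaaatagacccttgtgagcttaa
Tsc2: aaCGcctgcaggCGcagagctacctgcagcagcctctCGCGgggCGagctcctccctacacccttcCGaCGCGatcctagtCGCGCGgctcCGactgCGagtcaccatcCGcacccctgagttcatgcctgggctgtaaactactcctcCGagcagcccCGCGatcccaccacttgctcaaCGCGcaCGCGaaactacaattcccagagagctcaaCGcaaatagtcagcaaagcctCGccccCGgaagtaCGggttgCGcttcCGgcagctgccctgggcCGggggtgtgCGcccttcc
Adcy3 alternative start: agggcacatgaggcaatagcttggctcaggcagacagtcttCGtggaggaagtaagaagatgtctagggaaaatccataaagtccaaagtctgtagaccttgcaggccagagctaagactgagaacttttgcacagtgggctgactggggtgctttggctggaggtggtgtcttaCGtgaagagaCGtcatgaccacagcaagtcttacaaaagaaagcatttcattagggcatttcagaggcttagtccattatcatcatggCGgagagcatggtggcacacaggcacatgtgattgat
The Lep and Mmd2 windows of 300 bases held 19 and 18 CG dinucleotides, and the Tsc2 window held 29. The Cd36 window held 3 and the Adcy3 window 4.

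The 4 peak lists were unequal. They held 20304 and 21024 peaks in the NCD mice, and 13517 and 19079 in the HFD mice. Median peak fold over background was 16.7 and 15.8 with NCD and 5.14 and 9.31 with HFD, so both HFD libraries lay below both NCD libraries. The background level at which peaks had been called, recovered from the fold and p columns, was 0.664 and 0.835 fragments per base with NCD and 0.461 and 1.85 with HFD. This level accounted for 70.0% and 66.3% of the peaks scanned in the NCD lists but for only 11.4% and 9.4% in the HFD lists, so the HFD values are less certain. Peaks were narrowest in mouse 7, whose median width was 597 bp, the other 3 medians being 1010 to 1117 bp. Reads per library are not given by the lists, and the part of these differences in the region counts was not tested. For this reason every count was also made with the 13517 highest peaks of each list, ranked by −log10 p, which is called the equal-number comparison. The lowest peak kept had a −log10 p of 15.1 and 14.9 in mice 1 and 2, 3.82 in mouse 7 and 13.5 in mouse 8. The labels give the tissue as iBAT, which the paper spells out as interscapular and the deposited design text as inguinal brown adipose tissue, and the markers do not separate these depots. Brown adipose identity was checked by its markers: all 15 thermogenic genes of the brown adipocyte list had a start-site peak in mice 1, 2 and 8 and 13 in mouse 7, among them Ucp1 and Cidea, although Prdm16 and Zic1 had none in mouse 7. The cytoskeletal gene Actb had a peak in every mouse, whereas the liver gene Alb and the neuronal gene Neurod1 had none in any of the 8 mice.

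NCD-only regions outnumbered HFD-only regions in both comparisons, and they were mostly weak. In the full lists, NCD-only regions were 10.8% and HFD-only regions 0.0484% of the 22710, while 10186 (44.9%) had a peak in all 4 mice and 5476 had one in mice 1, 2 and 8 but not in mouse 7. With equal numbers, 595 of 14508 regions were NCD-only (4.10%) and 79 were HFD-only (0.545%), of which 75 were nuclear. Mitochondrial regions and nuclear copies of mitochondrial DNA made up 4 of the 11 HFD-only regions of the full lists. The smaller number of NCD-only regions with equal numbers was still larger than the HFD-only number.

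**Figure D1:**
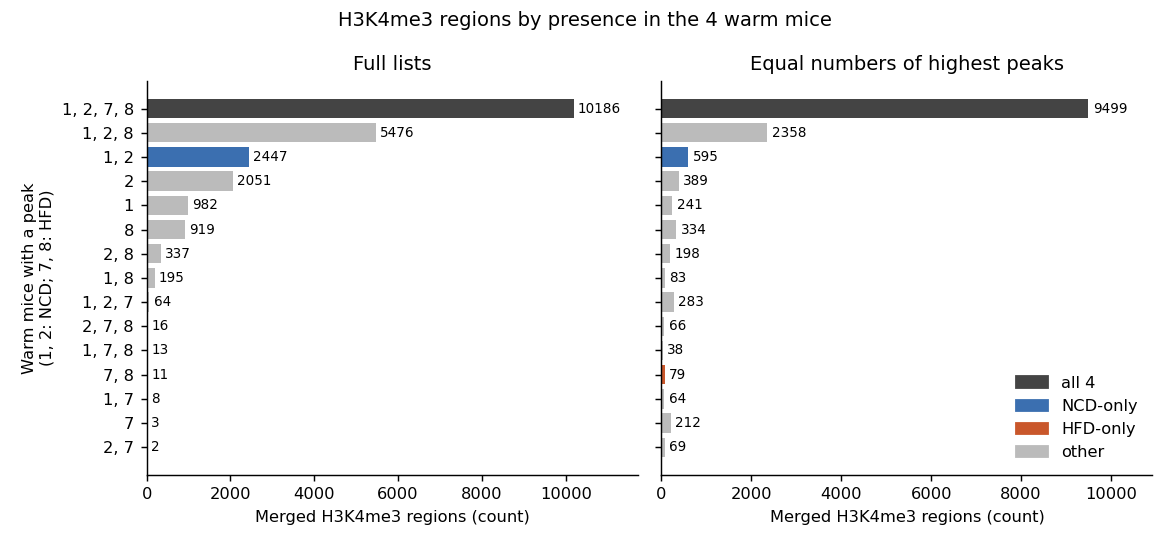
Number of joined H3K4me3 regions (horizontal axis) for each combination of warm mice with a peak (vertical axis), in the full lists (left) and with equal numbers of highest peaks (right). Regions in all 4 mice were the largest class, with 10186 and 9499, and NCD-only regions (2447 and 595) exceeded HFD-only regions (11 and 79) in both panels.

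Height is expressed as the rank percentile of a peak within its own list, from 0 at the bottom to 100 at the top. NCD-only regions of the full lists had a median percentile of 14.2 in mouse 1 and 19.3 in mouse 2, with median folds of 5.84 and 5.74. Regions with a peak in all 4 mice had median percentiles of 73.8 and 75.1 in the same mice, with folds of 29.4 and 32.7. The 7 nuclear HFD-only regions lay at 29.0 and 23.3 in mice 7 and 8. With equal numbers, the NCD-only regions lay at 8.36 and 10.0, and the nuclear HFD-only regions at 23.3 and 8.73. In each of these medians the regions sorted by diet lay in the lower part of the list.

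Their position also differed from that of shared regions. NCD-only regions of the full lists had a median width of 486 bp against 1806 bp for regions in all 4 mice, and 28.1% of them against 89.7% reached within 1000 bp of an annotated start site. With equal numbers the shares at a start site were 51.3% for NCD-only, 36.0% for nuclear HFD-only and 93.2% for shared regions. Of the 48 nuclear HFD-only regions away from start sites, 35 (72.9%) lay within a gene, against 48.3% of the 290 NCD-only regions away from start sites.

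The cold mice, which played no part in sorting the regions, gave a second look at them. Of the 595 NCD-only regions with equal numbers, 68.1% and 74.8% had a peak in cold NCD mice 4 and 5, and 44.2% and 64.4% in cold HFD mice 10 and 11. Both cold NCD mice were thus above both cold HFD mice, a difference of 17.1 percentage points (exact permutation test, two-sided, p = 0.333, the smallest that 2 against 2 allows). Of all 14508 regions, 86.8% and 88.6% had a peak in the cold NCD mice and 80.8% and 90.2% in the cold HFD mice, so that the groups overlapped there. In the full lists the NCD-only regions were found again at 65.0% and 69.0% with NCD, and at 15.0% and 79.8% with HFD. These groups overlapped (difference 19.6 points, exact permutation p = 1.0), and the difference was -12.8 points without mouse 10, whose list was the shortest of the cold lists.

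HFD-only regions leaned the other way in the cold. Of the 75 nuclear HFD-only regions with equal numbers, 17.3% and 9.33% had a peak in the cold NCD mice and 56.0% and 70.7% in the cold HFD mice, a difference of -50.0 points for NCD minus HFD (exact permutation p = 0.333). The groups did not overlap. Sorted by the same rule in the cold mice, 31 of the 75 (41.3%) were HFD-only again and 1 was NCD-only, where 2.61% of all regions were HFD-only in the cold. Of the 595 NCD-only regions, 63 (10.6%) were NCD-only again in the cold and 15 were HFD-only, where 1.55% of all regions were NCD-only. The warm and cold mice share no sample. Library quality was not equal between diets in the cold either, with median folds of 11.8 and 28.6 for NCD and 7.79 and 11.8 for HFD. The lowest peak kept in the equal-number lists had a −log10 p of 34.0 and 40.3 in cold NCD mice 4 and 5. In cold HFD mice 10 and 11 it was 7.42 and 22.8, so peaks of equal −log10 p could be kept with HFD and dropped with NCD. The part of these cut-offs in the recurrence was not tested. Of the 7 nuclear HFD-only regions of the full lists, 28.6% had a peak in each cold NCD mouse. In the cold HFD mice 71.4% and 85.7% did.

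**Figure D2:**
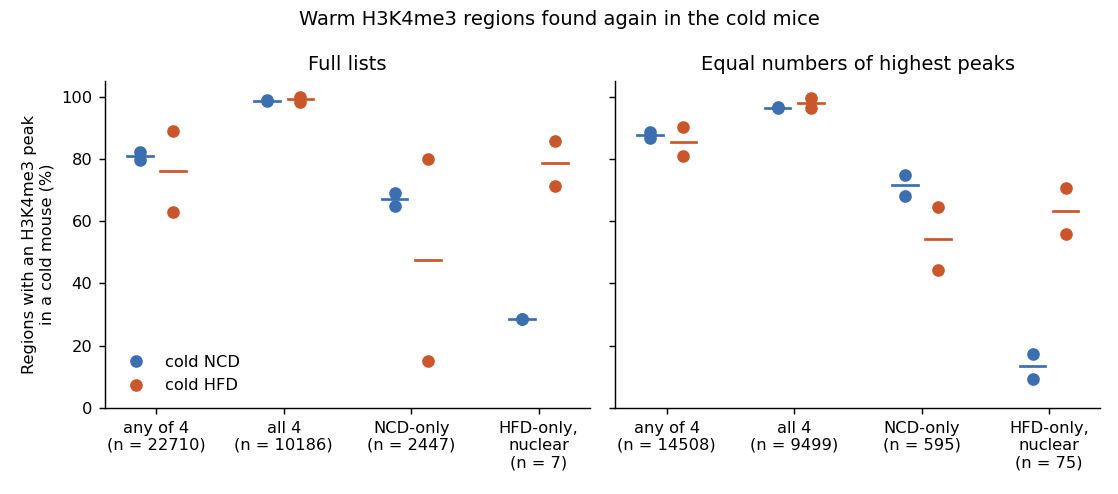
Percent of warm H3K4me3 regions with an H3K4me3 peak in each cold mouse (points; bars are the means of 2 mice), by class of region, in the full lists (left) and with equal numbers (right). The nuclear HFD-only regions with equal numbers were found at 17.3% and 9.33% in cold NCD mice and at 56.0% and 70.7% in cold HFD mice. The −log10 p cut-offs of the cold equal-number lists were higher in the NCD mice.

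H3K27ac in the same warm mice followed neither diet class alone. With equal numbers, an H3K27ac peak lay on 48.0% and 72.0% of nuclear HFD-only regions in NCD mice 1 and 2, and on 30.7% and 77.3% in HFD mice 7 and 8. For NCD-only regions the shares were 17.6%, 38.5%, 1.34% and 25% in the same order, and for shared regions 69.7%, 87.9%, 9.52% and 80.0%. HFD-only regions thus more often had an acetylation peak than NCD-only regions in each of the 4 mice. Of these 75 HFD-only regions, 67 and 68 had a lower H3K4me3 peak in the full lists of mice 1 and 2, and 3 had none in either. The H3K27ac list of mouse 7 held only 3224 peaks against 16889 to 33798 in the others.

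At the level of genes, a peak within 1000 bp of a start site was found for 17230 genes in the full lists. NCD-only genes numbered 590 (3.42%), 379 of them protein-coding, and HFD-only genes 48 (0.279%). Of the 48, 46 lay on the mitochondrial chromosome or on its nuclear copies and the other 2 were the lincRNA genes AC153155.1 and AC153155.2. With equal numbers, 299 of 15207 genes were NCD-only (1.97%) and 71 HFD-only (0.467%), of which 25 were not mitochondrial and 21 of these protein-coding. The 26 genes that were NCD-only in both comparisons made up 4.41% of the full-list and 8.7% of the equal-number set. The others of the full-list set lost a peak in an NCD mouse when the lists were shortened, and the others of the equal-number set had a full-list peak in an HFD mouse that ranked below its 13517 highest.

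Lep was NCD-only in both comparisons, warm and cold. Its start site (ENSMUSG00000059201, chr6:29060220-29073877) lay in a region of 3069 bp, with a fold of 16.3 in mouse 1 and 13.2 in mouse 2, and no peak in mouse 7 or mouse 8. The cold mice showed the same split, with folds of 19.7 and 46.9 in mice 4 and 5 and no peak in mice 10 and 11. In the equal-number lists its percentiles were 22.4 and 23.0 in the warm NCD mice and 27.9 and 28.6 in the cold NCD mice. An H3K27ac peak was present in both warm NCD mice and absent in both warm HFD mice. The H3K27ac list of mouse 7 held only 3224 peaks, so its absence in that mouse carries little information. The H3K4me3 peak was of middle height in warm chow mice, at percentiles of 48.3 and 50.5 of the full lists.

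Other secreted factors were also found among the NCD-only genes. Fgf21, encoding a hormone of fuel metabolism, was NCD-only in the full lists with folds of 6.53 and 6.65, but all 4 cold mice had a peak, from 8.66 to 19.8. Apln, encoding the peptide hormone apelin, and Rbp4, encoding a retinol carrier, were NCD-only with equal numbers, warm and cold. Their peaks in mouse 8 (folds of 5.55 and 3.83, against 10.3 and 10.9 for Apln and 9.38 and 9.47 for Rbp4 in the NCD mice) were too low for the shortened list. In the full cold lists HFD mouse 11 likewise had a peak at both genes, with folds of 7.56 for Apln and 9.28 for Rbp4. Of the 14 listed secreted factors, 9, 10, 5 and 8 had a start-site peak in mice 1, 2, 7 and 8. No list member was HFD-only.

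The remaining NCD-only genes with the highest ranks in both comparisons had diverse roles. Car3 encodes carbonic anhydrase 3, an abundant enzyme of adipose tissue and muscle, and had folds of 17.3 and 14.2 with NCD, and no peak with HFD. In the cold, Car3 had folds of 16.6 and 11.2 in the NCD mice, no peak in mouse 10 and 4.47 in mouse 11. Ccdc170, a coiled-coil protein gene, had 14.1 and 13.1 and, in the cold, 16.8 and 20.6 against no peak and 3.45. Mmd2, encoding a membrane protein, had 12.5 and 12.2 and, in the cold, 15.8 and 26.7 against 5.15 and 9.62. In each of these 3 genes the folds of the cold NCD mice exceeded those of the cold HFD mice, whose lists had lower folds as a whole. Cryab and Hspb2, small heat shock protein genes that share a promoter, had 11.9 and 11.5 with NCD and 13.5 and 19.0 against 4.43 and 5.26 in the cold.

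The other genes that were NCD-only in both comparisons and named by rank had a peak in 1 or both cold HFD mice. Dnah6, an axonemal dynein gene, had folds of 13.4 and 13.1 in warm NCD mice and no peak with HFD, yet all 4 cold mice had a peak, with 12.9 and 11.7 in the NCD mice and 8.05 and 7.16 in the HFD mice. Its peak was shared with Gm40377. Snx22, a sorting nexin gene, had 12.3 and 11.7 with NCD and 14.0, 36.8, 6.36 and 12.4 in cold mice 4, 5, 10 and 11. Sfi1, a centrosomal protein gene, shared its peak with Gm12735 and had 7.77 and 5.5, and in the cold a peak in only mice 5 and 11. The other protein-coding members named by rank were Cerkl (11.5 and 11.5), Orm1, the acute-phase glycoprotein orosomucoid (10.9 and 12.2), and Il17rc, an interleukin-17 receptor chain (12.5 and 9.75). The non-coding Gm49704 and Gm13496 had folds of 11.3 and 13.7, and of 8.48 and 14.3. Gm15551, the adipose lncRNA that the study examined, was NCD-only in the full lists with folds of 5.36 and 6.94, at percentiles of 12.0 and 27.8, and had no peak in any equal-number list of the warm mice.

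Across the equal-number comparison, 36 of the 299 NCD-only genes were NCD-only in the cold as well (12.0%) and 4 were HFD-only (1.34%), where 0.855% of all 15207 genes were NCD-only and 1.45% HFD-only in the cold. Inhba, encoding a subunit of activin A, and Tgfbi, encoding a matrix protein induced by TGF-β, were among the 36. They were chosen after their values were seen. Inhba had folds of 13.5 and 14.9 with NCD, no peak in mouse 7 and 5.39 in mouse 8. Tgfbi had 9.87 and 8.91, no peak in mouse 7 and 4.36 in mouse 8. In the full cold lists Inhba had folds of 4.67 and 8.25 in HFD mice 10 and 11. Tgfbi had no peak in mouse 10 and 7.62 in mouse 11.

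All nuclear HFD-only genes with equal numbers except AC153155.1 and AC153155.2 had a peak in at least 1 NCD mouse in the full lists, so they met the rule only once the lists were shortened. The following 11 genes were chosen after their values were seen. Emcn, Clec1a, Myct1, Btnl9 and Adtrp are known for expression in endothelial cells, and Gimap4 encodes a GTPase of lymphoid cells. These 6 genes were HFD-only in the equal-number lists of the cold mice too, but not in the full cold lists. There Emcn, Clec1a, Btnl9 and Adtrp had a peak in every cold mouse. Myct1 and Gimap4 had one in cold NCD mouse 5 and in both cold HFD mice. Emcn, for endomucin, had folds of 9.06 and 7.5 with NCD and 4.73 and 9.12 with HFD, so that fold overlapped between the diets while the rank did not. Its full-list percentiles were 32.7, 31.8, 16.9 and 38.4, which overlapped. Those of Clec1a (20.4, 30.3, 11.7 and 36.8), Gimap4 (14.2, 18.1, 1.18 and 38.3) and Btnl9 (23.7, 31.1, 23.3 and 30.4) overlapped as well. Myct1 (14.2, 2.36, 23.3 and 29.8) was higher in both HFD mice on this scale. So was Adtrp, with 14.2 in mouse 1, no peak in mouse 2, and 27.8 and 42.3 with HFD. The interferon-inducible GTPase genes Tgtp2 and Gvin1, members of multigene families with near-identical copies, had full-list percentiles of 23.4, 34.4, 45.6 and 40.7, and of 30.3, 20.7, 23.3 and 33.0. Tgtp2 was higher in both HFD mice on this scale and Gvin1 was not.

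Genes of metabolism belonged to the same class. Dhrs9, a short-chain dehydrogenase gene, had a peak in mouse 1 (8.19), none in mouse 2, and folds of 8.03 and 12.1 in the HFD mice. Slc25a34, a mitochondrial carrier gene, had 7.65 and 4.42 against 4.69 and 9.23. Nnmt, encoding nicotinamide N-methyltransferase, had no peak in mouse 1, 6.1 in mouse 2, and 4.23 and 7.26 in mice 7 and 8. Nnmt had no peak in the cold NCD mice and 6.24 and 18.8 in the cold HFD mice. It was HFD-only in the equal-number lists of the cold mice too, whereas Dhrs9, Slc25a34, Tgtp2 and Gvin1 were not. Slc25a34 had cold folds of 20.4 and 24.4 with NCD against 12.5 and 15.5 with HFD. In the full lists the endothelial markers did not separate the diets: 6, 6, 3 and 6 of 7 had a peak in mice 1, 2, 7 and 8, Vwf had none and none of the 7 was HFD-only. With equal numbers 4, 5, 3 and 6 of the 7 had a peak in these mice, and again none was HFD-only. The part of cell type make-up in the HFD-only genes was not tested.

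The 17 RefSeq promoters that matched nuclear HFD-only genes held few CG dinucleotides, with a median of 5 per 300 bases (250 before and 50 after the start). The median was 16 in 233 NCD-only promoters, 22 in promoters of genes in all 4 lists, and 7 over all 32851 promoters of the table. The letters TATAAA, searched on both strands, were present in 6 of the 17 (35.3%), in 8.15% of NCD-only promoters, in 5.86% of promoters in all 4 lists and in 13.6% of all promoters. A match of these letters is a description of the window and says nothing of a bound factor. Promoters of genes that ranked higher with HFD or with NCD in all 4 lists had medians of 23 and 22 CG dinucleotides, so the CG-poor Cd36 window above was not typical of its set.

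Adcy3 held an HFD-only region that recurred in both cold HFD mice. The gene encodes an adenylyl cyclase, the enzyme that makes cyclic AMP downstream of β-adrenergic receptors. The region, chr12:4159537-4162977 on GRCm38, lay inside an intron, 25384 bp from the nearest start site of the basic annotation, and it covered position 4159600, where the full annotation places the start of an alternative processed transcript of Adcy3. H3K4me3 folds were 6.78 and 9.13 in warm HFD mice 7 and 8, and 9.63 and 11.4 in cold HFD mice 10 and 11. None of the 4 NCD mice, warm or cold, had a peak there.

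The other readouts at the Adcy3 locus differed from this. All 8 mice had an H3K27ac peak at the alternative start, with folds of 9.13, 9.44, 6.98 and 11.2 in warm mice 1, 2, 7 and 8 and of 14.9, 9.43, 8.15 and 22.4 in cold mice 4, 5, 10 and 11. The main Adcy3 start had an H3K4me3 peak in all 8 mice, at 21.7, 19.5, 4.4 and 13.1 in the warm mice. Its full-list percentiles, 57.1 and 53.7 with NCD and 28.0 and 67.7 with HFD, overlapped between the diets. An H3K4me1 peak, a mark of enhancers and of promoter flanks, lay at the alternative start in NCD mice 2, 4 and 5 (folds of 5.51, 4.35 and 5.16) and in no HFD mouse. The H3K4me1 lists of mice 1, 7 and 10 held only 592, 12 and 18 peaks, so in mice 7 and 10 this absence carries little information.

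The other nuclear HFD-only regions of the full lists were narrower. A region in an intron of Hadh (chr3:131268143-131269074), whose enzyme acts in mitochondrial fatty acid oxidation, had folds of 4.75 and 4.77 in the warm HFD mice and 5.27 and 41.3 in the cold HFD mice, and was HFD-only in the cold as well. A region of 549 bp in Hadha, of the same pathway, had 3.97 and 3.58. Regions in Ppp5c (5.22 and 4.62) and Vps45 (4.32 and 9.29) and 1 on chromosome 18 outside genes (4.75 and 4.92) made up the rest. The start-site region of AC153155.1 and AC153155.2 had 7.11 and 6.98, and in the full lists all 4 cold mice had a peak there, from 4.12 to 18.4.

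With equal numbers more HFD-only regions appeared within genes. The examples given here were chosen after their values were seen. A pair of regions lay in an intron of Cd36, the fatty acid transporter, 2063 and 5050 bp from the nearest start site. The first, chr5:17837780-17840564, had folds of 3.7 and 8.42 in the warm HFD mice and 7.21 and 14.0 in the cold HFD mice. Mgll, monoacylglycerol lipase, had 6.2 and 7.95, and Gpat4, glycerol-3-phosphate acyltransferase, had 8.16 and 9.23. Pde7b, a cyclic AMP phosphodiesterase gene, had 8.56 and 8.71, and Nr4a1, an orphan nuclear receptor gene, had 9.14 and 12.6. All of the regions named here except the second Cd36 region were HFD-only in the equal-number lists of the cold mice too. The −log10 p cut-offs of those lists were higher in the cold NCD mice, so lower NCD peaks would not appear there. All carried an H3K27ac peak in mouse 2 and mouse 8.

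Of the nuclear HFD-only regions of the full lists that lay away from basic start sites, 3 of 6 reached a start site of the full annotation, at Adcy3, Hadha and Ppp5c. Of those away from basic start sites, 8 of 48 (16.7%) with equal numbers reached a start site of the full annotation. The share was 12.4% for NCD-only regions and 19.2% for shared regions. With equal numbers the share among HFD-only regions thus lay between those of the other classes.

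Mitochondrial regions were set apart. Both HFD mice and neither NCD mouse had peaks over the mitochondrial chromosome, in joined regions from 53 to 9345 and from 9954 to 16229, and over nuclear copies of mitochondrial DNA at chr1:24611584-24616129 and chr2:22589608-22590193. The chr1 region had folds of only 2.71 and 4.05 and yet ranked at percentiles of 99.6 and 99.9. In the cold the peaks on the mitochondrial chromosome again appeared in the HFD mice (4 and 3) and in neither NCD mouse. Mitochondrial DNA carries no histones, so these peaks are reported as signal over the input and not as a histone mark.

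Ranks were compared for start sites with a peak above the cut-off of each of the 4 equal-number lists. Of 11335 such genes, 1588 (14.0%) had both HFD percentiles above both NCD percentiles and 2735 (24.1%) had both NCD percentiles above both HFD percentiles. The median shift was -3.6 points for HFD minus NCD. These shares are the background for the gene lists.

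Dio2, which encodes the enzyme that activates thyroid hormone in brown fat, had the widest gap upward. Its percentiles were 21.6 and 12.8 with NCD and 93.4 and 68.8 with HFD, a gap of 47.2 points between the nearest mice. It shares its promoter with Gm26512. The region at Dio2 was also wider with HFD, 2116 and 3321 bp against 1869 and 1498 bp, and in the cold the HFD percentiles of 68.8 and 68.6 again lay above 54.8 and 22.1. Gatad1, a chromatin-associated zinc finger gene, followed with 40.5 and 38.8 against 87.1 and 87.7 in the warm. Ffar4, encoding the long-chain fatty acid receptor GPR120, had 26.8 and 19.0 against 81.2 and 72.5, and 34.3 and 44.5 against 70.1 and 46.7 in the cold. Zfp217, a zinc finger gene, had 34.0 and 39.4 against 82.3 and 87.7.

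The largest gaps downward were at genes of general cell function. Nthl1, a DNA repair glycosylase gene, and Tsc2, which restrains mTORC1, share a promoter and had 82.0 and 86.2 with NCD and 15.9 and 34.1 with HFD. Napg, a vesicle fusion gene, had 95.9 and 89.9 against 13.5 and 43.3. Coa7, a respiratory chain assembly gene, had 74.7 and 88.4 against 28.0 and 28.8, and Ciao2a, of iron-sulfur protein assembly, had 94.4 and 91.4 against 46.9 and 32.8. In the cold, none of these 5 genes had both NCD mice above both HFD mice. For Tsc2 the cold percentiles were 91.4 and 83.7 with NCD and 92.7 and 87.1 with HFD.

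**Figure D3:**
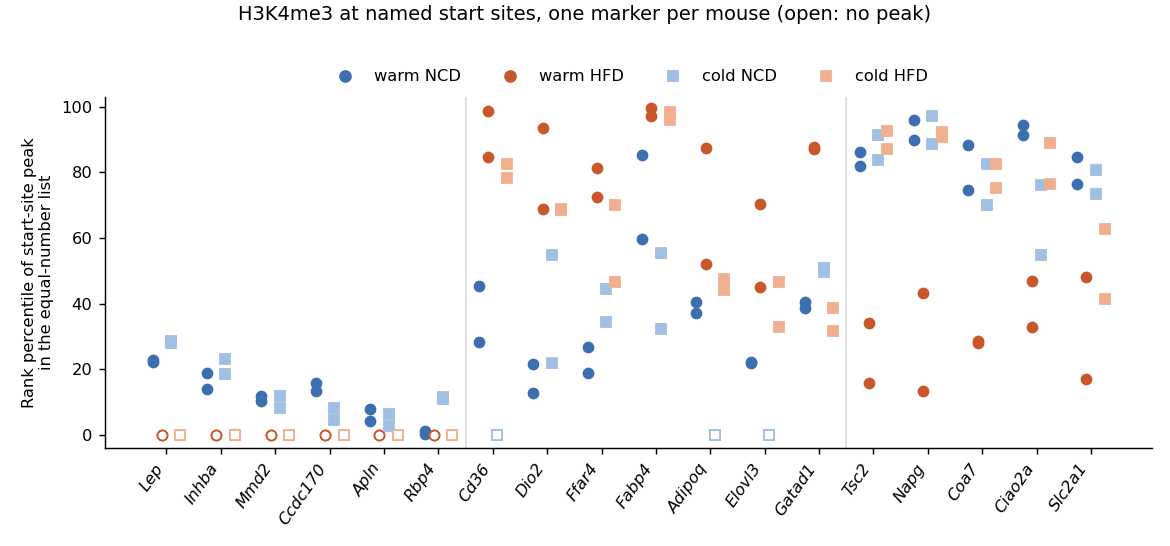
Rank percentile of the start-site H3K4me3 peak in the equal-number list (vertical axis) for named genes, 1 marker per mouse and an open marker at 0 where the list held no peak. Lep had percentiles of 22.4 and 23.0 in warm NCD mice and none with HFD, whereas Cd36 stood at 98.8 and 84.6 in warm HFD mice against 28.2 and 45.4 with NCD.

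Of 12 adipocyte identity genes ranked in all 4 lists, 4 (33.3%) were higher in both HFD mice and 1 (8.33%) in both NCD mice. Over all genes these shares were 14.0% and 24.1%. The median shift of the 12 was 8.4 points against -3.6 over all genes. Cd36 had percentiles of 28.2 and 45.4 with NCD and 98.8 and 84.6 with HFD. In the cold it had no peak in the equal-number lists of the NCD mice and 82.6 and 78.2 in the HFD mice. The full lists of the cold NCD mice did hold a Cd36 peak, with folds of 8.28 and 15.2. Its full-list percentiles were 23.7 and 37.9 there, and 86.3 and 87.8 in the cold HFD mice. In the warm, the Cd36 start-site peak spanned 3989 and 6988 bp with HFD and 1402 and 1505 bp with NCD. Fabp4, the adipocyte fatty acid binding protein, had 59.6 and 85.3 against 99.7 and 97.1, and in the cold 55.5 and 32.4 against 96.0 and 98.5. Adipoq, encoding adiponectin, had 40.5 and 37.2 against 87.3 and 52.0. Lipe, hormone-sensitive lipase, had 76.6 and 73.0 against 98.9 and 80.0. Cebpb, an early adipogenic transcription factor, had 76.6 and 74.3 against 73.1 and 70.6 and was the 1 gene higher in both NCD mice. Pnpla2, the triglyceride lipase ATGL, had 97.4 and 95.2 against 44.4 and 98.8, overlapping but with a mean shift of -24.7 points. Pparg, the master regulator of adipocytes, overlapped between the diets, at 76.6 and 68.7 against 97.6 and 70.3.

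Of 13 thermogenic genes ranked in all 4 lists, 5 (38.5%) were higher in both HFD mice and 1 (7.69%) in both NCD mice. Over all genes these shares were 14.0% and 24.1%. The median shift of the 13 was 8.8 points. Prdm16 and Zic1 were not ranked, because mouse 7 had no peak there. Besides Dio2, Elovl3, an elongase of very long-chain fatty acids, had 22.4 and 21.9 against 70.5 and 45.1. Cpt1b, which admits fatty acids to mitochondria, had 28.8 and 24.9 against 92.9 and 48.1. Cox8b (60.7 and 50.7 against 97.4 and 60.8) and Kcnk3 (48.6 and 41.9 against 57.0 and 51.2) had smaller gaps. The full-list percentiles of Cox8b and of Kcnk3 overlapped between the diets. Adrb3, the β3-adrenergic receptor, had 45.7 and 53.9 against 15.2 and 39.6. Ucp1 and Cidea overlapped, with 42.9 and 43.2 against 63.2 and 37.7 for Ucp1.

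**Figure D4:**
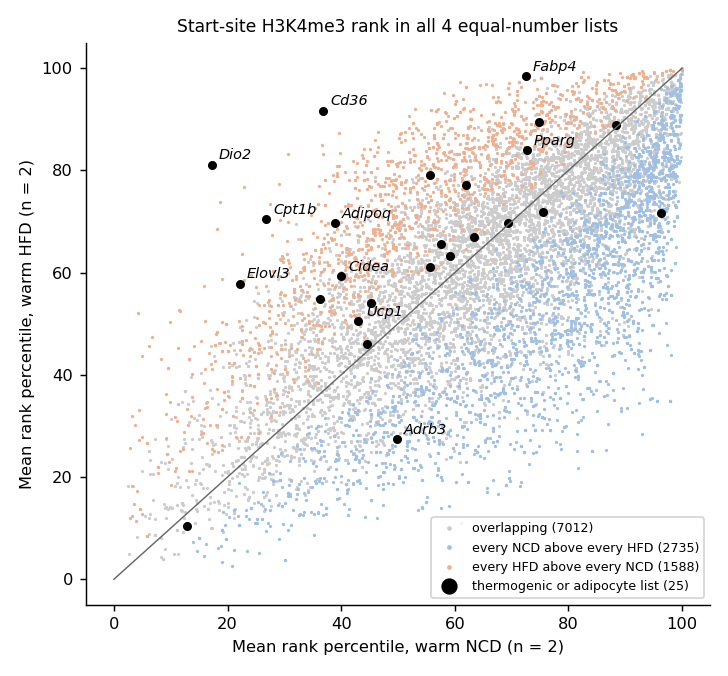
Mean rank percentile of the start-site H3K4me3 peak in warm NCD (horizontal) and warm HFD mice (vertical), 2 mice each, for 11335 genes, with thermogenic and adipocyte genes in black and the line of equal rank. Cd36, Dio2 and Cpt1b stand far above the line, and 1588 genes were higher in both HFD mice against 2735 in both NCD mice.

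Pathways of lipid and glucose metabolism had as many genes higher with HFD as with NCD. Over all genes, 14.0% were higher with HFD and 24.1% with NCD, with a median shift of -3.6. Of 16 lipogenic genes, 3 were higher with HFD (Elovl6, Me1 and Thrsp) and 3 with NCD (Acly, Scd1 and Pnpla3), with a median shift of -0.5. Of 14 fatty acid oxidation genes, 3 were higher with HFD (Cpt1b, Slc25a20 and Decr1) and 3 with NCD (Cpt2, Acadm and Ehhadh), with a median of 1.6. Of 11 glucose and insulin genes, 2 were higher in each direction, and of 10 circadian genes 1 was higher with HFD. Slc2a1, the GLUT1 glucose transporter, had 76.6 and 84.7 with NCD and 17.2 and 48.3 with HFD. Of 14 listed secreted factors, only 5 had a peak in all 4 equal-number lists and could be ranked. Among these 5, Adipoq, Nrg4 and Vegfa were higher with HFD and Angptl4 with NCD (82.9 and 74.3 against 28.5 and 66.2). Lep, Apln and Rbp4 were NCD-only in the same lists, so they were not ranked.

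The direction of shift in the warm recurred in part in the cold. Of 1464 genes higher with HFD in the warm and present in all 4 cold lists, 359 (24.5%) were higher with HFD and 223 (15.2%) higher with NCD in the cold. Of 2696 genes higher with NCD, 552 (20.5%) were higher with NCD and 363 (13.5%) with HFD. Over all 10871 genes these shares were 17.5% with HFD and 17.3% with NCD. A majority of the genes in both sets overlapped between diets in the cold. A promoter shared with a gene on the other strand, within 1000 bp, was found for 39.3% of the 11335 genes in all 4 warm equal-number lists. The share was 33.4% of those higher with HFD and 44.8% of those higher with NCD. Among the 590 NCD-only genes of the full lists, which are not drawn from these 11335, it was 16.8%.

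Markers of other cell types moved with the lists as well. Of 12 matrix and fibroblast genes, 11, 11, 1 and 8 had a start-site peak in mice 1, 2, 7 and 8, and Dpt (5.63 and 5.43) and Thbs1 (9.86 and 8.49) were NCD-only in the full lists. With equal numbers 4, 6, 1 and 4 matrix genes had a peak and none was NCD-only. Of 14 skeletal muscle genes, 5, 5, 1 and 3 had a peak, and Acta1 (6.24 and 5.43) and Pygm (5.03 and 5.13) were NCD-only in the full lists, while the defining genes Ckm, Myh1, Myh2, Myh4 and Myod1 had none. With equal numbers 2, 2, 1 and 2 muscle genes had a peak and Acta1 and Pygm were in no warm list. Of 13 macrophage genes, 1, 1, 1 and 2 had a peak, and of 8 lymphocyte genes none did. Of 6 neural and Schwann genes 2 had a peak in each mouse, and of 6 epithelial genes 1, 1, 0 and 1. Over all genes the numbers were 16573, 16878, 11658 and 16080, so mouse 7 was low throughout, and the part of cell type make-up in the NCD-only genes was not tested. A smaller share of cells of a type and less mark per cell cannot be told apart in whole tissue.

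**Figure D5:**
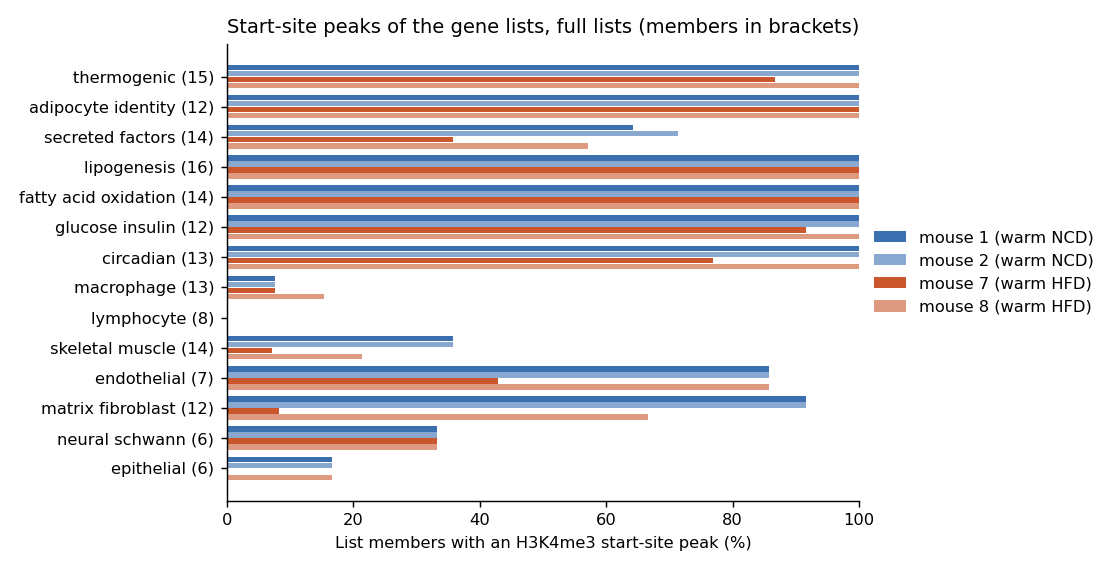
Percent of each gene list with a start-site H3K4me3 peak in the full list of each warm mouse (bars; list size in parentheses). Adipocyte, lipogenic and fatty acid oxidation genes had a peak in all 4 mice, whereas 11 of 12 matrix genes had one in each NCD mouse and 1 and 8 in the HFD mice.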

How the data were processed

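Chromatin from brown adipose tissue was immunoprecipitated for H3K4me3. The authors trimmed reads with cutadapt, aligned them to GRCm38 with Bowtie2 and called peaks with MACS2 against the input of the same mouse. No source used here names their versions. The deposited narrowPeak lists hold, per library, a fold over background (a ratio), −log10 p and −log10 q. No read totals were used, and fold was never compared between lists by a test. Peaks were joined at 1 bp of overlap and assigned to 77258 start sites of GENCODE M21 basic within 1000 bp. Ranks use −log10 p. The shortest list set the equal number of 13517. Nuclear copies of mitochondrial DNA are alignments of at least 100 bp found with blastn 2.17.0. The sorting was tested on simulated data. Python 3.11.15, pandas 2.3.3 and scipy 1.17.1 were used.

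The members and gene lists were chosen with earlier results of these data known. Named genes were a fixed set of 10, the 12 protein-coding and 4 non-coding genes of each diet class in both comparisons ranked by the lower percentile of the 2 mice, the list genes in a diet class, the 5 widest rank gaps in each direction, and others said to be chosen after their values were seen. The 2 against 2 comparisons are counts. The alternatives were stricter q cut-offs, a joining gap of 500 bp, other list lengths, ranking by fold, leaving out mitochondrial regions and leaving out each mouse.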

Additional observations from a re-analysis of the deposited data

Results flagged for a closer look

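Gatad1 and Ciao2a reversed their order between housing temperatures. Gatad1 ranked higher in both warm HFD mice, with a gap of 46.6 percentile points between the nearest mice, but lower in both cold HFD mice (31.7 and 38.8 against 51.0 and 49.6 with NCD). Ciao2a ranked higher in both warm NCD mice, with a gap of 44.5 points, but lower in the cold NCD mice (76.2 and 54.8 against 88.9 and 76.4 with HFD). In both cases the difference between temperatures was not tested.

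Peaks on the mitochondrial chromosome were found with the other marks too. The 2 warm HFD lists held 7 such H3K27ac peaks, 12 of H3K4me1 and 12 of H3K27me3. The warm NCD lists held 0 of each. In the cold, NCD mice 4 and 5 had 5 and 1 for H3K27ac and 3 and 4 for H3K4me1.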

How the results depend on the processing

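No paired analysis was possible because the mice of the 2 diets share no replicate number. NCD-only regions, 2447 in the full lists, numbered 595 with equal numbers, 1365 at −log10 q of at least 10, and 296 and 396 with the 10000 and 5000 highest peaks per list (lengths chosen after seeing the data). HFD-only regions, 11 in the full lists, numbered 79, 7 at −log10 q of at least 5, 4 at 10, 7 without mitochondrial regions, and 104 and 251 with those list lengths. NCD-only genes (590) numbered 299 with equal numbers, 272 with the 10000 highest peaks and 513 with the 5000 highest. HFD-only genes (48) numbered 2 without mitochondrial regions, and 112 and 305 with those list lengths. With the 5000 highest peaks the excess of NCD-only over HFD-only regions was smallest among the list lengths tried.

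Leaving out a mouse asks for fewer libraries, so counts rise by construction. NCD-only regions then ranged from 2512 to 7983 and HFD-only regions from 26 to 934, NCD-only genes from 597 to 4520 and HFD-only genes from 48 to 145. With equal numbers the ranges were 878 to 2959 and 122 to 418. The highest NCD-only values came without mouse 8 and the highest HFD-only values without mouse 7. Rank shifts toward HFD ranged from 2440 to 5208 genes and toward NCD from 3744 to 5936. The cold difference of NCD-only regions (19.6 points) ranged from -12.8, without mouse 10, to 52.0, and that of HFD-only regions (-63.6 points) from -72.7 to -20.1. The gaps of the genes named for the widest gaps cannot narrow when a mouse is left out, because they lie between the nearest mice. Ranked by fold instead of −log10 p, these gaps kept their direction, from 33.7 points for Coa7 to 73.7 for Nthl1 and Tsc2.

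Depth is unknown beyond the recovered background, and with 2 libraries per diet the smallest exact p is 0.333.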
